A study of Mus musculus with 4 samples.

Results

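Of 5 listed cytokine genes of the IL-10 and IL-22 family, Il22 alone was above 1 TPM in mouse T helper 17 (Th17) cells. TPM is a transcript level scaled by exon length and by the library's total. Of the 10 genes described here, 5 code for cytokines (Il10, Il19, Il20, Il22 and Il24) and 5 for receptor chains or a soluble receptor (Il10ra, Il10rb, Il20rb, Il22ra1 and Il22ra2). They were taken by symbol from a table of 50600 genes, by a list of family members. The list's rule uses no measured value, but it was chosen with earlier results of these data known. Il20ra, a further receptor chain of the family, is not on that list and is given with the other class II receptors. Iltifb, which codes for a close copy of IL-22, is not on the list either. It was also above 1 TPM, at a mean of 2.17 TPM. The samples were 4 RNA-seq libraries of Th17 primary cells from C57BL/6NJ mice, given as biological replicates 1 to 4. Per the labels, CD4 T cells had been differentiated in culture. No agent, allele or genotype beyond the strain, no age and no time was given, sex was not collected, and 1 donor entry was shared by all 4 libraries. The file headers name a 24 hour sample, a time that is absent from the labels. There was no second cell type or condition, so every value is a level within 1 group.

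Cytokines of this family are secreted helical proteins that bind pairs of class II cytokine receptor chains. IL-10 restrains macrophages and other leukocytes through IL-10RA paired with IL-10RB. IL-22, made by Th17 cells, innate lymphoid cells and gamma-delta T cells, acts on epithelia through IL-22RA1 paired with the same IL-10RB chain, while IL-22RA2 is a soluble protein that binds IL-22 and blocks it. IL-19, IL-20 and IL-24 use IL-20RB together with IL-20RA, and IL-20 and IL-24 can also use IL-20RB with IL-22RA1. The receptors signal through the kinases JAK1 and TYK2, mainly to STAT3.

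The mouse genome annotation holds a second gene, Iltifb, that codes for a close copy of IL-22, so the letters that separate the pair decide which reads can be assigned to either gene. Over 537 aligned coding bases the GENCODE M21 transcripts of Il22 and Iltifb differed at 9, an identity of 98.3%. Counted from the A of the start codon, with the Il22 base first, the substitutions were G106A, A150G, C188T, T213C, C217T, G258A, T474C, G486A and T492C. The stretch from coding base 98 to 217 holds 5 of them, shown in capitals.
Il22: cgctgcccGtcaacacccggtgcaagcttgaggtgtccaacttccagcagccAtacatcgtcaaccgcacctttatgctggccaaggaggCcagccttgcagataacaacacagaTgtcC
Iltifb: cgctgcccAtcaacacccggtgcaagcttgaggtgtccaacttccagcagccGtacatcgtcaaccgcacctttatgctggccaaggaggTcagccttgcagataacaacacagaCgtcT
Reads that match both genes equally were not counted. Of the 1061 words of 50 bases in Il22 transcripts, 435 (41.0%) also occur in Iltifb, and no other gene holds any. The levels of both genes are therefore uncertain. The word length was set here without the read length, so for read pairs that span more bases the shared part would be smaller.

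The start regions of the pair are shown next as sequence only. Whether their letters bear on the levels of Il22 and Iltifb was not tested. The Il22 gene of the counts starts at 118204942, upstream of the RefSeq start but within the window. Each window runs from 250 bases before to 50 bases after the RefSeq start (GRCm38.p6), at chr10:118204714-118205013 on the plus strand for Il22 and chr10:118294989-118295288 on the minus strand for Iltifb. Capitals mark the runs of at least 12 bases that both windows hold.
Il22: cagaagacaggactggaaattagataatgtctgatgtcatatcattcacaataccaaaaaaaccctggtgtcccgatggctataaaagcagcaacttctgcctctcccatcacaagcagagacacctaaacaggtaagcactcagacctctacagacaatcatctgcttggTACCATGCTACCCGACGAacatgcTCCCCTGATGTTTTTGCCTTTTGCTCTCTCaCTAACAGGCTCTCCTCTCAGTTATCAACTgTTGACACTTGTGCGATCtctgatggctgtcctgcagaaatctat
Iltifb: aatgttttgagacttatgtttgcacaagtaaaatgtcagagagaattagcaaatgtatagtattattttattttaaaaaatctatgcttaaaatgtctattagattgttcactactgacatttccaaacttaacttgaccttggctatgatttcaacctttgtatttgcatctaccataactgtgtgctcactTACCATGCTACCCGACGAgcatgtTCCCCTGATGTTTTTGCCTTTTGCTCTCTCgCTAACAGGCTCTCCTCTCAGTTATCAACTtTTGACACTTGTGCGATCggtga
The shared part is 94 of 300 bases in 4 runs, the longest of 30 bases. With the RefSeq start at position 0 it begins at -79 in Il22 and at -57 in Iltifb, and upstream of that the windows share no such run. The letters TATAAA, the core of the TATA box, stand on the gene's strand at -170 in the Il22 window and are not in that of Iltifb, and 8.32% of 32817 RefSeq windows hold them. RefSeq windows were at hand for 5 of the 10 genes (Il19, Il20, Il22, Il22ra1 and Il20rb). In the Il22 window no match was found on either strand to the AP-1 letters TGANTCA (held by 7.81% of windows), the STAT letters TTCNNNGAA (8.29%), the core GCGTG bound by AHR (32.4%) or the nuclear receptor half-site AGGTCA (16.3%). The matches elsewhere were TTCNNNGAA at -225 in Il19, AGGTCA at -170 in Il20, at -115 in Iltifb and at 13 in Il20rb, and TGANTCA at -222 in Il22ra1. None of these matches overlapped another in the same window.

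Total counts of read pairs were 41360302, 19332509, 34979616 and 48558772 in replicates 1 to 4 and fell on 16486 to 18085 genes. Counts of the 6 pairs of libraries differed beyond sampling noise, at 4.36 to 11.4 chi-square units per degree of freedom, so no library was a copy of another. Ddx3y, a gene of the Y chromosome named after its values were seen, was at 77.8 and 58.9 TPM in replicates 1 and 2. In replicates 3 and 4 it was at 0.240 and 0.0925 TPM. The libraries thus do not all come from 1 animal, although the labels give a single donor entry. Chi-square units per degree of freedom were 4.36 between replicates 1 and 2 and 5.87 between replicates 3 and 4, beside 6.88 to 11.4 for the other pairs. These units grow with depth, so pairs of unlike depth are not on 1 scale. Pearson correlations of log2(TPM + 1) were 0.995 and 0.996 for the same 2 pairs, beside 0.994 to 0.996 for the others. All 7 Th17 and T cell markers were above 1 TPM, among them Cd4 at 317 ± 8.53 TPM (SD, n = 4) and Il23r, a chain of the IL-23 receptor, at 14.4 ± 2.70 TPM. Of markers of other cells, 0 of 5 B cell genes, 1 of 7 macrophage and dendritic cell genes (Cd68), 1 of 6 epithelial genes (Epcam), 1 of 3 tested innate lymphoid and gamma-delta T genes (Kit) and 0 of 4 regulatory T cell genes were above it. Over all protein-coding genes 45.9% were above 1 TPM. Lyz2, Csf1r, Krt8, Krt19 and Cldn7 had no count. The B cell genes lay between Ms4a1 at 0.00777 TPM and Cd79b at 0.337 TPM on average, the regulatory T cell genes between Lrrc32 at 0.0614 TPM and Ikzf2 at 0.757 TPM, and the innate lymphoid and gamma-delta T genes between Blk at 0.0139 TPM and Kit at 1.77 TPM. The summed level ran from 0.189 to 1.06 TPM over the libraries for the B cell list, 5.55 to 7.62 TPM for the macrophage and dendritic cell list, 1.33 to 2.02 TPM for the epithelial list, 3.57 to 3.96 TPM for the innate lymphoid and gamma-delta T list and 1.03 to 1.33 TPM for the regulatory T cell list. In bulk RNA, fewer cells that express a gene and less RNA of it per cell cannot be told apart, which holds for each level below.

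When each level was set against 1 TPM in a quasi-likelihood test (edgeR), with Benjamini-Hochberg adjustment at 0.05 over 21764 protein-coding genes, 4 of the 10 family genes were above 1 TPM (Il22, Il10ra, Il10rb and Il20rb) and 6 were below (Il10, Il24, Il19, Il20, Il22ra1 and Il22ra2). Among all protein-coding genes 45.9% were above and 51.5% below, so neither share stands apart from the background. The median of the 10 mean levels was 0.309 TPM, beside 0.411 TPM over all protein-coding genes. The order of mean levels was Il22, Il10ra, Il10rb, Il20rb, Il10, Il24 and Il19, followed by Il20, Il22ra1 and Il22ra2 with no count. Down to Il20rb, no gene's range over the libraries overlapped that of the next. The ranges of Il10 and Il24 overlapped, as did those of Il24 and Il19, so these neighbours could not be ordered at this depth. The p-values borrow a dispersion from other genes, and the 4 libraries are not stated to come from separate animals, so the spread may in part be technical.

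**Figure D1:**
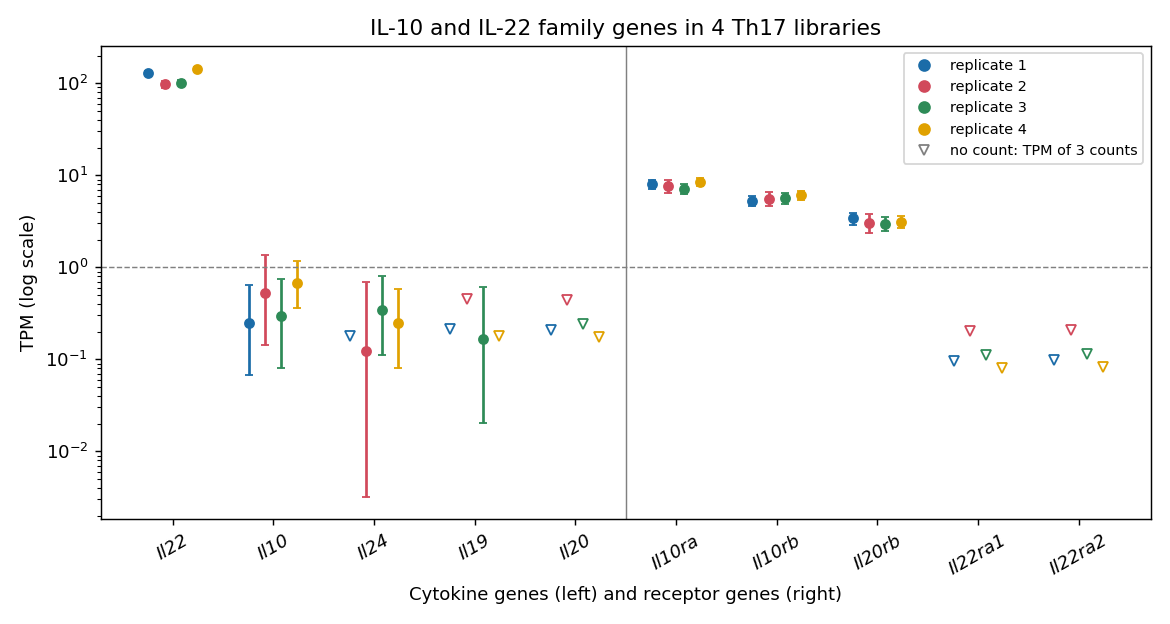
Level of the 10 family genes in each Th17 library, in TPM on a log scale; points are single libraries, bars are exact 95% Poisson intervals of the count, and open triangles mark libraries without a count at the TPM of 3 counts. Il22 sits between 97.1 and 143 TPM, Il10ra, Il10rb and Il20rb sit between 2.97 and 8.50 TPM, and the points of Il10, Il24 and Il19 lie under the dashed line at 1 TPM.

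Il22 (ENSMUSG00000074695, mm10 chromosome 10, 118204942 to 118210047, plus strand) had 1765, 624, 1176 and 2307 counts in replicates 1 to 4, which correspond to 131, 97.1, 102 and 143 TPM. Replicates 1 and 4 were high and replicates 2 and 3 low, and the exact 95% Poisson intervals of the counts (89.7 to 105 TPM in replicate 2 and 137 to 149 TPM in replicate 4) did not overlap between the lowest and the highest library. Each side of the split seen for Ddx3y held a high and a low library, and replicate 2 was also the shallowest library. Trdc, the constant segment of the T cell receptor delta chain, is 1 of the 5 innate lymphoid and gamma-delta T genes listed. Those cells also make IL-22. Trdc was at 1.08, 0.805, 0.895 and 0.497 TPM in replicates 1 to 4. Its lowest value was in replicate 4, where Il22 was highest, and its highest in replicate 1, where Il22 was also high. The other genes of that list did not share this order. Kit was highest in replicate 4 at 2.06 TPM and Sox13 in replicate 1 at 1.24 TPM. Tcrg-C1 had 1 count, in replicate 3, and Blk had 2, in replicate 4. The part of depth or of other cells in the spread of Il22 was not tested. The mean of 118 ± 22.1 TPM (SD, n = 4) placed Il22 at rank 1751 of the 21764 protein-coding genes. When the exon length was restricted to the part of Il22 without words shared with Iltifb, an alternative chosen after seeing the data, the level was 200.1 ± 37.5 TPM. Il22 made up 99.8%, 99.3%, 99.2% and 99.4% of the summed TPM of the 5 listed cytokine genes in replicates 1 to 4. That sum leaves out Iltifb.

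Iltifb (ENSMUSG00000090461, mm10 chromosome 10, 118289629 to 118295038, minus strand) lies 79.6 kb from Il22 and had 40, 9, 31 and 31 counts, or 2.87, 1.36, 2.60 and 1.86 TPM. Its mean was 2.17 ± 0.690 TPM (SD, n = 4), or 3.60 ± 1.14 TPM over its unshared length, and edgeR's test placed it above 1 TPM (adjusted p = 7.96e-07). Il22 gathered 44.1, 69.3, 37.9 and 74.4 times as many counts as its copy in replicates 1 to 4. The copy was thus lower in all 4 libraries, and its lowest library was replicate 2, the shallowest. Whether some counts of Iltifb were reads of Il22 placed on the copy, which would raise its level, was not tested.

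Il10, the gene of the anti-inflammatory cytokine IL-10 (ENSMUSG00000016529, mm10 chromosome 1, 131019845 to 131024974, plus strand), had 4, 4, 4 and 13 counts, or 0.251, 0.528, 0.293 and 0.681 TPM in replicates 1 to 4. Every library was under 1 TPM, but the exact 95% Poisson intervals reached 1.35 TPM in replicate 2 and 1.17 TPM in replicate 4. The mean was 0.438 ± 0.203 TPM (SD, n = 4) and below 1 TPM by edgeR's test (adjusted p = 0.0173) and by DESeq2's Wald test (adjusted p = 0.0412). The edgeR call was lost without replicate 1 (adjusted p = 0.0727) and without replicate 3 (adjusted p = 0.0803), and Il10 was not distinguishable from a level of 0.5 TPM (adjusted p = 0.710).

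Il24, Il20 and Il19 code for the cytokines that act through IL-20RB. Il24 (ENSMUSG00000026420, mm10 chromosome 1, 130882074 to 130887454, minus strand) had 0, 1, 5 and 5 counts, or 0, 0.125, 0.347 and 0.248 TPM. Its mean was 0.180 ± 0.150 TPM (SD, n = 4), with the counts in replicates 2, 3 and 4 (edgeR adjusted p = 0.000200). Il19 (ENSMUSG00000016524, mm10 chromosome 1, 130932656 to 130940115, minus strand) had 2 counts in replicate 3, or 0.167 TPM, and none in the other libraries (edgeR adjusted p = 8.38e-06). Il20 (ENSMUSG00000026416, mm10 chromosome 1, 130906985 to 130911451, minus strand) had no count in any library, so that its level may reach 0.0589 TPM, the equivalent of 3 counts summed over all 4 libraries (edgeR adjusted p = 4.15e-07). Such limits and intervals cover counting error only.

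Differences in level between family genes, or between Il22 and the IL-17 genes, were taken within each library on the log2(TPM + 1) scale. Il22 exceeded Il10 by 6.36 ± 0.29 and Il24 by 6.65 ± 0.36 (SD, n = 4), and both differences depend on the pseudocount, at 7.84 and 8.91 with 0.1 TPM and at 8.14 and 10.1 with 0.01 TPM. Il22 exceeded Il17a, the gene of the signature cytokine IL-17A, by 1.33 ± 0.13, and its difference from Il17f, the gene of the related IL-17F, was -2.06 ± 0.18. The ratio of Il22 to Il17a in TPM was 2.45, 2.39, 2.47 and 2.91 in replicates 1 to 4, so replicate 4 stood above the other libraries. Over the unshared exon length of Il22, each ratio to Il17a or Il17f is larger by the same factor as the Il22 level, and Il22 remains below Il17f in all 4 libraries. Each difference had the same sign in 4 of 4 libraries. Over the 6 pairs compared, which include the receptor pairs below, the exact two-sided sign-flip permutation test gave p = 0.125 each (0.125 adjusted over the pairs), the smallest p that 4 libraries allow, so no pair could pass 0.05.

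**Figure D2:**
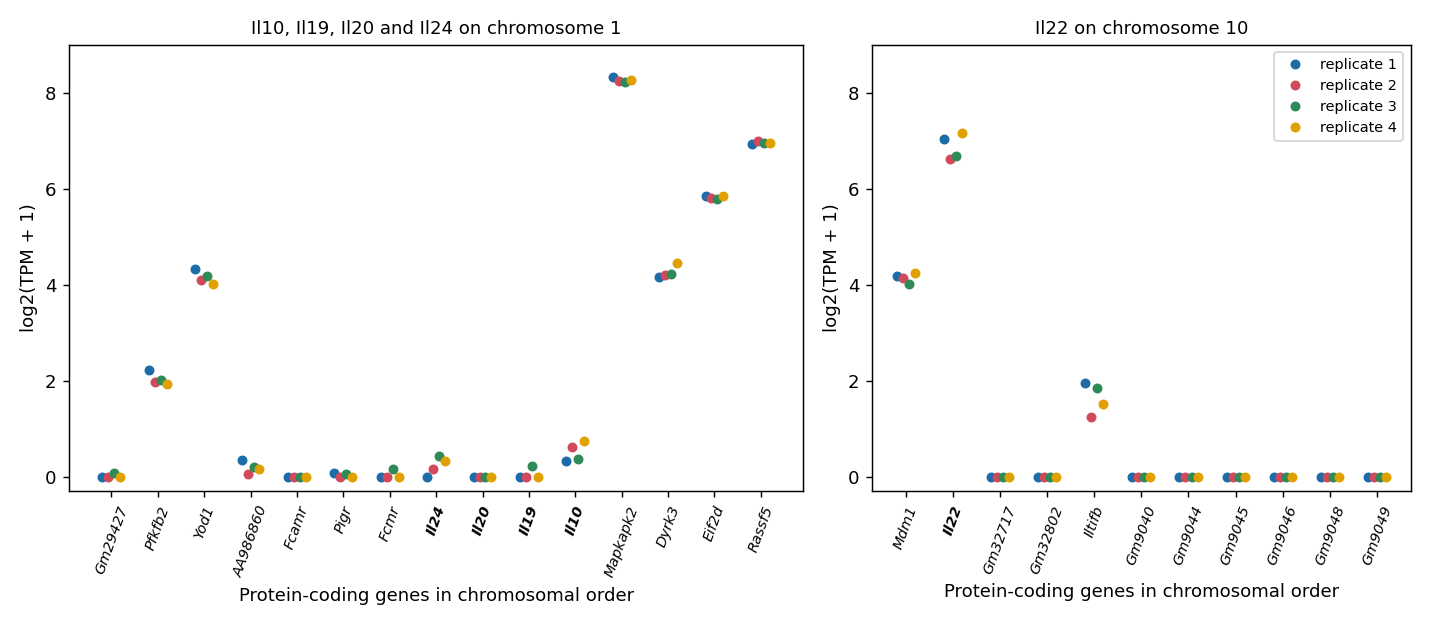
Level of protein-coding genes within 200 kb of the cytokine genes on chromosomes 1 and 10, as log2(TPM + 1), in chromosomal order with family genes in bold; points are single libraries. On chromosome 1 the 4 cytokine genes and the genes to their left up to AA986860 lie near 0, while Mapkapk2, Dyrk3, Eif2d and Rassf5 to their right do not; on chromosome 10 Il22 is the highest gene and Iltifb and Mdm1 are the others with counts.

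Il24, Il20, Il19 and Il10 lie side by side on chromosome 1, with gaps of 19.5, 21.2 and 79.7 kb between them. The next gene after Il10 was Mapkapk2, the gene of a kinase downstream of p38, at 306.5 ± 10.9 TPM (SD, n = 4). Behind it came Dyrk3, a kinase gene, at 18.2 ± 1.86 TPM, Eif2d, the gene of a translation initiation factor, at 55.6 ± 1.43 TPM and Rassf5, the gene of an adaptor in integrin activation, at 123 ± 2.07 TPM. On the other flank the Fc receptor genes Fcmr and Pigr were at 0.0277 ± 0.0554 and 0.0272 ± 0.0319 TPM, and Fcamr had no count. Further out on that side Yod1, a deubiquitinase gene, was at 16.9 ± 1.71 TPM and Pfkfb2, a gene of glycolytic control, at 3.13 ± 0.385 TPM. Gm29427, which overlaps Pfkfb2 in position, had 1 count. The genes from AA986860 to Il10 were thus all low, with Yod1 on one side and Mapkapk2 on the other above 1 TPM. At the Il22 locus, Mdm1 was at 16.7 ± 1.11 TPM, and the 8 other annotated protein-coding genes within 200 kb beside Iltifb had no count. All 8 have the same exon length of 2409 bases. Multi-mapping reads were not counted, and whether these genes share sequence was not tested, so their zeros may not mean absence.

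Il10ra, the ligand-binding chain of the IL-10 receptor (ENSMUSG00000032089, mm10 chromosome 9, 45253837 to 45269149, minus strand), was the highest receptor gene of the family, with 341, 155, 261 and 433 counts, or 8.003, 7.66, 7.17 and 8.50 TPM in replicates 1 to 4. The libraries differed by a factor of 1.19 between the highest and the lowest, and the mean was 7.83 ± 0.561 TPM (SD, n = 4). Il10rb, the chain that the IL-10 and IL-22 receptors share (ENSMUSG00000022969, mm10 chromosome 16, 91406164 to 91425834, plus strand), had 246, 123, 223 and 336 counts, or 5.30, 5.58, 5.63 and 6.06 TPM, with a mean of 5.64 ± 0.312 TPM. Of the exon bases of Il10rb, 569 (14.9%) also belong to Gm21970, a gene on the same strand that had no count. Reads within both genes were left unassigned under the options in the file headers, and over the other bases, an alternative chosen after seeing the data, the level of Il10rb was 6.63 ± 0.367 TPM. Il10ra exceeded Il10rb by 0.41 ± 0.09 on the log2(TPM + 1) scale, with TPM ratios of 1.51, 1.37, 1.27 and 1.403.

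Il20rb, the chain used by IL-19, IL-20 and IL-24 (ENSMUSG00000044244, mm10 chromosome 9, 100457719 to 100486788, minus strand), had 174, 74, 130 and 192 counts, or 3.40, 3.04, 2.97 and 3.13 TPM in replicates 1 to 4. Its mean of 3.14 ± 0.187 TPM (SD, n = 4) was above 1 TPM by edgeR's test (adjusted p = 8.46e-62), although the partner chain gene Il20ra had no count (limit 0.0288 TPM). Il10ra, Il10rb and Il20rb together amounted to 16.7, 16.3, 15.8 and 17.7 TPM, of which Il10ra held 45.5% to 48.0%, Il10rb 31.8% to 35.7% and Il20rb 17.7% to 20.3%. Their order was the same in every library.

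Il22ra1, the signalling chain specific to IL-22, IL-20 and IL-24 (ENSMUSG00000037157, mm10 chromosome 4, 135728172 to 135752140, plus strand), had no count in any library, for a limit of 0.0272 TPM. Its level was below 1 TPM by edgeR's test (adjusted p = 5.97e-10). Il22ra2, the gene of the soluble IL-22 binding protein (ENSMUSG00000039760, mm10 chromosome 10, 19621998 to 19634681, plus strand), likewise had none, for a limit of 0.0280 TPM (edgeR adjusted p = 7.69e-10). Il10rb exceeded Il22ra1 by 2.73 ± 0.07 on the log2(TPM + 1) scale (SD, n = 4), and by 5.84 with a pseudocount of 0.1 TPM and 9.14 with 0.01 TPM. DESeq2's Wald test gives no p to genes without a count, so the calls of Il20, Il22ra1 and Il22ra2 rest on edgeR. Of the 7 family genes to which it gave a p, DESeq2 placed 4 above and 3 below 1 TPM, beside 70.8% and 23.9% of the 14060 protein-coding genes that received an adjusted p.

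**Figure D3:**
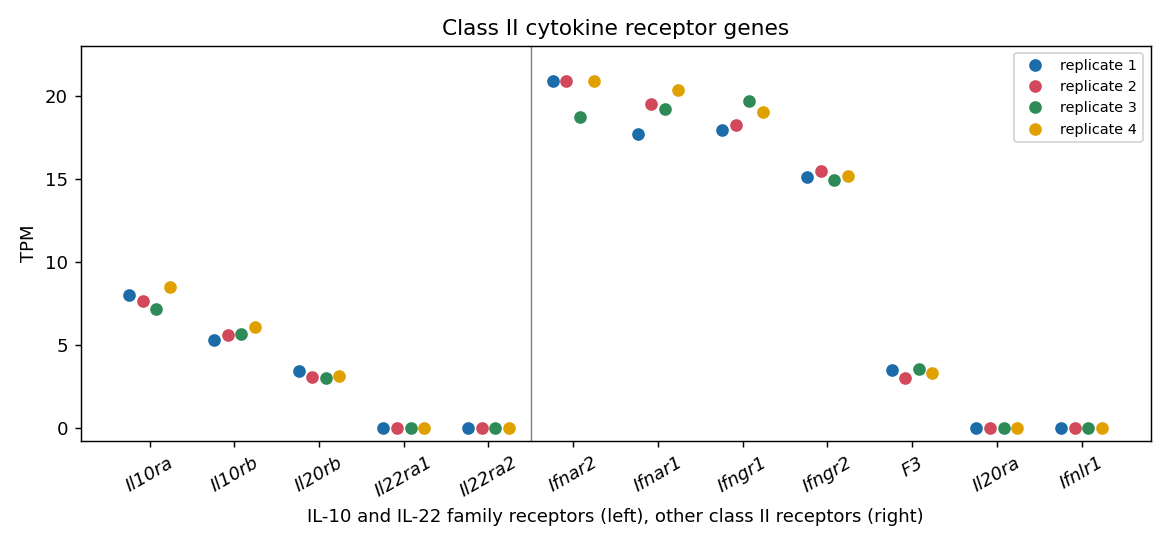
Level in TPM of the 5 family receptor genes and of 7 other class II cytokine receptor genes in each Th17 library; points are single libraries. Il10ra, Il10rb and Il20rb lie between 2.97 and 8.50 TPM, under the 4 interferon receptor genes at 14.9 to 20.9 TPM, and Il22ra1, Il22ra2, Il20ra and Ifnlr1 lie at 0.

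The other class II cytokine receptor genes listed were Il20ra, the 5 genes of interferon receptor chains and that of tissue factor. By edgeR's test 5 of 7 were above 1 TPM and 2 (Il20ra and Ifnlr1) below, beside 45.9% and 51.5% of all protein-coding genes. Ifnar2 and Ifnar1, the chains of the type I interferon receptor, were at 20.3 ± 1.07 and 19.2 ± 1.09 TPM (SD, n = 4). Ifngr1 and Ifngr2, the chains of the interferon gamma receptor, were at 18.7 ± 0.794 and 15.2 ± 0.243 TPM. F3, the gene of tissue factor, was at 3.33 ± 0.236 TPM, and its range overlapped that of Il20rb. Ifnlr1, the chain that pairs with IL-10RB for interferon lambda, had no count (limit 0.0167 TPM). Thus of the partner chains of IL-10RB listed here only Il10ra gave counts. Il10rb lies between Ifnar2 and Ifnar1 on chromosome 16, with gaps of 0.6 and 59.4 kb, yet Ifnar2 stood at 3.93, 3.74, 3.33 and 3.45 times its TPM in replicates 1 to 4. Il22ra1 and Ifnlr1 are neighbours 20.0 kb apart on chromosome 4, and Il22ra2 lies 11.8 kb from Ifngr1 and 77.9 kb from Il20ra on chromosome 10. Of these, Ifngr1 alone had counts.

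The kinases, STAT factors and feedback inhibitors that act below these receptors were all above 1 TPM, 9 of 9 by edgeR's test, with a median of 140.0 TPM. Jak1 and Tyk2, the kinases bound to the IL-10 and IL-22 receptors, were at 143 ± 4.97 and 28.0 ± 0.973 TPM (SD, n = 4). Stat3 was at 140.0 ± 5.03 TPM, and Socs3, a feedback inhibitor that STAT3 induces, at 33.0 ± 2.70 TPM. Jak2 was the highest gene of the list at 418 ± 9.09 TPM. These genes also serve many other cytokine receptors, and 45.9% of all protein-coding genes were above 1 TPM.

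Genes known to respond to each cytokine were counted beside them. All 8 genes that IL-10 induces in macrophages were above 1 TPM, from Nfil3, a transcription factor, at 14.9 ± 0.989 TPM to Il4ra, the IL-4 receptor chain, at 190.1 ± 5.83 TPM (SD, n = 4), with Bcl3, an atypical I-kappaB protein, at 60.2 ± 2.99 TPM. Of 7 genes that IL-22 induces in epithelia 1 was above and 6 below. Among all protein-coding genes 45.9% were above 1 TPM and 51.5% below. Muc1, a membrane mucin, was at 2.91 ± 0.506 TPM, and the antimicrobial genes Reg3b, Reg3g, Lcn2, S100a8 and S100a9 and the fucosyltransferase gene Fut2 had no count. These levels have no untreated counterpart, so no induction can be read from them.

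Most listed regulators of the cytokine genes were above 1 TPM, beside 45.9% of all protein-coding genes. The lists were chosen with earlier results of these data known, so such counts are no test of the regulators. All 16 listed regulators of Il22 were above 1 TPM, from Maf at 8.86 ± 1.60 TPM to Batf at 787 ± 33.4 TPM (SD, n = 4), with a median of 36.0 TPM. Ahr, the gene of the ligand-activated factor needed for full Il22 expression in Th17 cells, was at 29.8 ± 6.25 TPM and its partner gene Arnt at 23.2 ± 0.464 TPM. Notch1 and Rbpj, which promote IL-22 production in T cells, were at 89.1 ± 2.49 and 47.2 ± 1.54 TPM, and Il1r1, the IL-1 receptor gene, at 27.5 ± 1.46 TPM. Of 14 listed regulators of Il10, 13 were above 1 TPM and 1 was below. The one below was Prdm1, the gene of BLIMP-1, an activator of Il10 in T cells, at 0.898, 0.991, 0.706 and 0.529 TPM in replicates 1 to 4 (mean 0.781 ± 0.206 TPM). Its edgeR adjusted p was 0.0359, and the call was lost with DESeq2, with TPM over protein-coding genes only and without replicate 3 or replicate 4. Maf, another activator of Il10 and a repressor of Il22, was above 1 TPM, as was Bhlhe40, a repressor of Il10, at 346 ± 21.3 TPM.

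Whether a family gene differed between libraries more than genes of its abundance do was tested with edgeR's trended dispersion, by the deviance of a negative binomial fit, over 12849 genes that averaged 10 counts or more. Of the 4 family genes that passed this filter (Il22, Il10ra, Il10rb and Il20rb), 0 passed an adjusted p of 0.05, beside 0.374% of all genes tested. At an unadjusted p under 0.05 there was 1 of the 4 (Il22), beside 633 of all 12849 genes tested. Il22 had an unadjusted p of 0.000285 and an adjusted p of 0.0654 by this edgeR-based test, at rank 56 of 12849. With edgeR's common dispersion its adjusted p was 0.0149, and with each library left out in turn it lay between 0.0673 and 0.476. The highest library exceeded the lowest by a factor of 1.47 for Il22, and by 1.19, 1.14 and 1.14 for Il10ra, Il10rb and Il20rb.

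**Figure D4:**
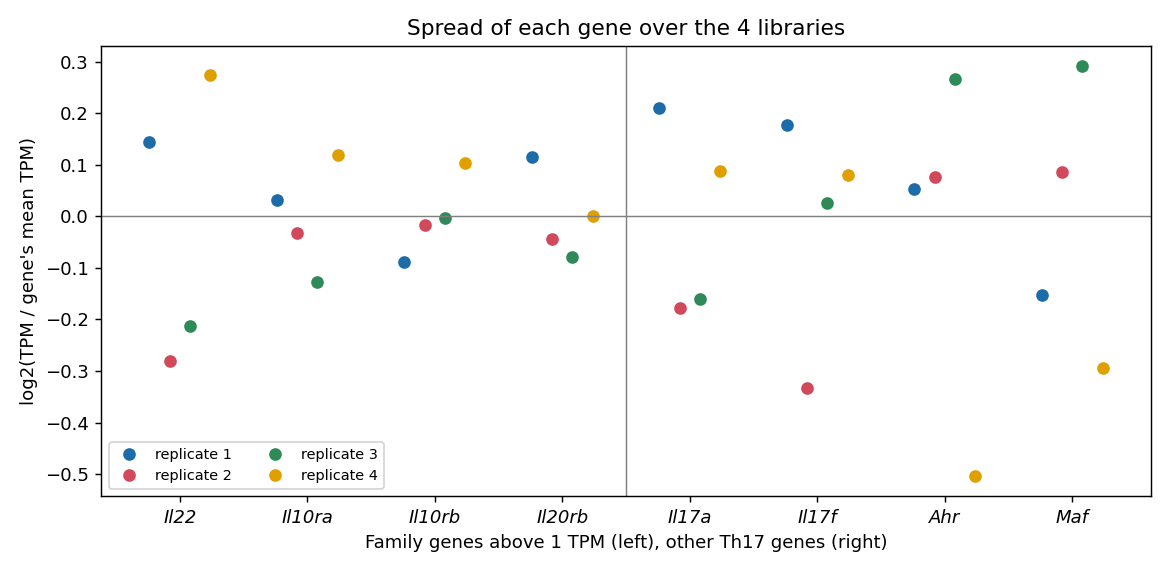
Level of each gene in each Th17 library relative to its own mean, as log2 of the TPM over the mean TPM, for the 4 family genes above 1 TPM and for Il17a, Il17f, Ahr and Maf; points are single libraries. Il22 ran from -0.28 in replicate 2 to 0.27 in replicate 4, the 3 receptor genes stayed within 0.13 of their means, and Ahr was lowest in replicate 4 at -0.50.

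The levels of other genes of the Th17 programme in the same libraries are given beside these. Il17a was at 53.3, 40.7, 41.2 and 48.97 TPM in replicates 1 to 4, with its higher values in the same 2 libraries as Il22, and its variation did not pass the test (edgeR-based adjusted p = 1.00). Il17f was at 557, 391, 501 and 521 TPM and lowest in replicate 2, the library in which Il22 was also lowest. Its variation passed the test (edgeR-based adjusted p = 0.0376), a call lost without replicate 2, 3 or 4, with the common dispersion and with a filter of 50 counts. Ahr was at 30.9, 31.4, 35.8 and 21.04 TPM, lowest in replicate 4, where Il22 was highest (adjusted p = 8.41e-05 by the edgeR-based test, and 1.00 without replicate 4). Maf was at 7.97, 9.39, 10.8 and 7.22 TPM, also lowest in replicate 4, and did not pass (edgeR-based adjusted p = 0.143), although it did with the common dispersion (edgeR-based adjusted p = 0.0244). Il6st, the gp130 chain that transmits the IL-6 signal, was at 45.6, 42.3, 45.5 and 35.4 TPM and passed (edgeR-based adjusted p = 0.0169), a call lost without replicate 3 or 4, with no filter and with the common dispersion. With 4 libraries no correlation between these genes was computed.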

How the data were processed

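RNA-seq was measured in 4 Th17 libraries, which the labels put in 1 group. The authors deposited whole-number counts. Per the file headers, featureCounts 1.4.6-p4 assigned read pairs to the exons of GENCODE M13 (mm10) by strand, with both ends mapped and without multi-mapping reads. The sources used here do not give a version of the aligner. The deposited tables also give each gene's merged exon length, from which TPM was computed here over all genes. The assay is named total RNA-seq in the labels, which link a protocol for poly(A) libraries, so the type of RNA selection is unsettled. Symbols came from GENCODE M21 by identifier (50376 of 50600 matched, 99.6%), and 98.7% to 98.9% of counts fell in protein-coding genes. Read pairs without molecular identifiers are not independent molecules.

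The level test was edgeR 4.0.16 (R 4.3.3), two-sided, by the quasi-likelihood F statistic of the intercept, with the count of 1 TPM as offset and Benjamini-Hochberg adjusted over 21764 protein-coding genes. Variation between libraries was tested by a one-sided chi-square test of the negative binomial deviance with TMM normalization. Pairs of genes were compared within libraries by an exact sign-flip test. Both tests across genes were tested on simulated data. The alternatives were DESeq2 1.42.0, other size factors, levels, filters, pseudocounts, dispersions, TPM denominators and each replicate left out. The members and lists were chosen with earlier results of these data known. Named are the family genes, genes of 15 lists (at least the highest and the lowest of each list), protein-coding genes within 200 kb of a cytokine gene, Il17a and Il17f. Ddx3y and Gm21970 were named after their values were seen, and values of 2 list genes are not reported here, though the lists' counts and medians include them.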

Additional observations from a re-analysis of the deposited data

Results flagged for a closer look

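Of 22 values examined over the 4 libraries, 2 had a library far from the others, by the gap to its nearest neighbour as a share of the whole range (above Dixon's critical value for 4 samples). Chance flags about 1 in 20 groups. The TPM of Il19 gave a share of 1, since replicate 3 alone had counts (2 counts, 0.167 TPM). The ratio of Il22 to Il17a gave a share of 0.837, from 2.91 in replicate 4 beside 2.39 to 2.47 in the other libraries. What sets these libraries apart was not tested.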

How the results depend on the processing

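The count of family genes above 1 TPM was 4 under each alternative, and that of genes below 1 TPM, 6 in the main test, was 3 with DESeq2, which gives no p to 3 genes without counts, and 0 when genes averaging under 10 counts were left out, where 4 family genes were tested. It was 5 against a level of 0.5 TPM and without replicate 1 or replicate 3, where Il10 lost its call, and 6 in the other alternatives. The count of family genes that varied between libraries, 0 in the main test, was 1 with the common dispersion. All 6 differences between pairs kept their direction under every alternative run. Exon length without shared or overlapping bases, chosen after seeing the data, moved the mean TPM of Il22 to 200.1, of Iltifb to 3.60 and of Il10rb to 6.63. Genes with few counts (Il10, Il24 and Il19) are limited by depth. Libraries could not be paired between groups because the 4 libraries form 1 group, with no second group to pair them with. Only pairs of genes were compared within libraries.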
